A study of Mus musculus with 9 samples.

Results

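The subject is the respiratory chain as encoded in the nucleus. The members were all genes whose symbols start with Nduf, Uqcr or Atp5, or with Cox4 to Cox8, together with Sdha, Sdhb, Sdhc, Sdhd and Cyc1, and without symbols that hold "-ps". The rule used names only and found 94 genes of the 52550 in the tables. By complex they were 44 for complex I, 4 for complex II, 9 for complex III, 20 for complex IV and 17 for complex V. The 44 of complex I comprised 7 core subunits, 29 accessory subunits and the 8 assembly factors Ndufaf1 to Ndufaf8. The 20 of complex IV included Cox7a2l, which was classed as an assembly factor. The 17 of complex V included Atp5s and Atp5sl, which its name prefix brought in and which were not classed as its subunits. Ndufa4 and Ndufa4l2 were placed with complex IV.

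The chain works in the inner mitochondrial membrane. Complex I (NADH dehydrogenase) and complex II (succinate dehydrogenase) pass electrons to coenzyme Q, complex III (cytochrome bc1) passes them to cytochrome c, and complex IV (cytochrome c oxidase) passes them to oxygen. Complexes I, III and IV pump protons, and complex V (ATP synthase) uses the proton gradient to make ATP, on which neurons depend heavily. Complexes I, III, IV and V combine subunits of the mitochondrial genome with the nuclear ones described here, whereas complex II is nuclear in full.

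RNA of mouse cerebral cortex was sequenced in 3 groups of 3 libraries. All animals were male C57BL/6N mice aged 9 to 12 weeks. Knockdown mice (replicates 2, 3 and 4) had a locked nucleic acid antisense oligonucleotide against the enhancer RNA eRNA_06347 infused into the lateral ventricles, and control oligo mice (replicates 1, 2 and 3) had a negative control oligonucleotide of the same chemistry. Both then underwent MCAO, the occlusion of the middle cerebral artery by a filament, for 1 h with 6 h of reperfusion, and the infarcted cortex of that side was taken. Sham mice (replicates 1, 2 and 3) had surgery without a filament, and per the labels their libraries had been made before, for another study of that laboratory. The labels name no oligonucleotide for sham. The level of eRNA_06347 itself was not analysed here. The model therefore holds the arterial occlusion and the oligonucleotide in the same 6 libraries, and for every comparison with sham these cannot be told apart from the data set.

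Expression is given in TPM, the share of a transcript per unit length scaled to a fixed total in each library, summed over the transcripts of a gene. The libraries of both MCAO groups held about 17500000 to 19600000 aligned pairs of 141 nt reads and the sham libraries about 29200000 to 31200000 pairs of 51 nt reads, as estimated from the deposited coverage. Nuclear protein-coding genes took 57.0 to 63.9% of all TPM in knockdown, 54.7 to 60.9% in control oligo and 30.6 to 34.2% in sham libraries, so a nuclear messenger with a constant share of the messenger pool is higher in TPM in both MCAO groups. The median of the 17080 genes tested moved with it, by 0.61 (log2) in knockdown against sham and by 0.56 in control oligo against sham, but only by 0.06 in knockdown against control oligo. Changes are therefore given as differences of log2(TPM + 1) on the deposited TPM and, called scaled, after median-ratio scaling, which sets the typical gene to the same level in each library. In bulk tissue fewer cells of a type and less RNA per cell cannot be told apart. Excitatory and inhibitory neuron markers (7 and 6 genes) were all detected, as cortex should show. In TPM recalculated over nuclear protein-coding genes the excitatory markers summed to 3942 to 5191 in knockdown and 4652 to 4994 in control oligo, against 2392 to 2742 in sham libraries, so this sum too was higher in every MCAO library. On that scale 3 of the 7 genes were called higher and 2 lower in control oligo against sham. The inhibitory markers summed to 862 to 1560 in knockdown and 1217 to 2014 in control oligo, against 1097 to 1175 in sham libraries. The part of neuron content in the member values was not tested.

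The promoters of 4 members are shown first, since factors that bind such sites are known to control respiratory genes as a group: nuclear respiratory factor 1 (NRF1), the ETS factor GABP and YY1. Sequences are RefSeq promoters on GRCm38.p6, from 250 bases before to 50 bases after the start site, 5′ to 3′ on the strand of the gene. Capitals mark matches to GCGCA and GCGC with 1 base of any kind between them (NRF1), CCGGAAG (ETS) or AAGATGGC (YY1) on either strand. Uqcrh is shown as the member with the largest change against sham, Ndufaf4 as the one with the lowest in control oligo against sham, and Sdha and Ndufb4 because each holds 3 matches to the NRF1 motif. They lie at chr4:116075021-116075320 (minus strand), chr4:24897833-24898132 (plus), chr13:74350191-74350490 (minus) and chr16:37654319-37654618 (minus).
Uqcrh: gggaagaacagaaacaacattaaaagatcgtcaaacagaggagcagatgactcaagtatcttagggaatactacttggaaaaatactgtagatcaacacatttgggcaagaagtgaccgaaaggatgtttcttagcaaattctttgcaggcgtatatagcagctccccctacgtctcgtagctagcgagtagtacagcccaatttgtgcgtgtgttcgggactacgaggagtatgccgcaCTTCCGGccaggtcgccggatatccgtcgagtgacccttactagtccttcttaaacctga
Ndufaf4: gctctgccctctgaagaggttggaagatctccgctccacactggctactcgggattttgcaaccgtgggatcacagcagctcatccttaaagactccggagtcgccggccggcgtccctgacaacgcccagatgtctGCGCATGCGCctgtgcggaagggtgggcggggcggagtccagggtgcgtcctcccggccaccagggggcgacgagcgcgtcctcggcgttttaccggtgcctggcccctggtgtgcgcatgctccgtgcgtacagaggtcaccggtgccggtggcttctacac
Sdha: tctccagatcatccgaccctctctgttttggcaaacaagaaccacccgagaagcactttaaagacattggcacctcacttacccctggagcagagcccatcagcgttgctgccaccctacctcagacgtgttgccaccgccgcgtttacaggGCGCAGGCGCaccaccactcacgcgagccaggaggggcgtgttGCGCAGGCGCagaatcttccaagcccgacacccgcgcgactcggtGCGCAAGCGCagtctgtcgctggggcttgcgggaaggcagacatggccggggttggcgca
Ndufb4: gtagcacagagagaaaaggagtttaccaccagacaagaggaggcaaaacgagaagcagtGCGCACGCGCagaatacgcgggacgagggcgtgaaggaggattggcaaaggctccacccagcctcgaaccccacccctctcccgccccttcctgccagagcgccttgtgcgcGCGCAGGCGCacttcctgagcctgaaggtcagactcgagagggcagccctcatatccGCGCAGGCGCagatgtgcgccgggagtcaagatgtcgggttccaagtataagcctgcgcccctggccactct

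Uqcrh held 1 ETS match, CTTCCGG, that starts 10 bases before the start site, and Ndufaf4 held 1 NRF1 match that starts 113 bases before it. Of the members, 74 of 94 were found in the promoter table, with 79 promoters. The NRF1 motif was present in 25.3% of these against 4.60% of all 32851 promoters, the ETS motif in 22.8% against 8.86% and the YY1 motif in 12.7% against 2.75%. The median GC content was 57.7% in member promoters and 52.7% in all promoters. The core of the hypoxia response element, ACGTG, was found in 22.8% of member promoters and 19.6% of all. Members tested with an NRF1 match (19) had a median change of 0.38 scaled in control oligo against sham, and those without (53) one of 0.16. In knockdown against sham the same medians were 0.24 and 0.19. For the ETS motif the scaled medians in control oligo against sham were 0.37 with and 0.18 without a match, for ACGTG 0.35 and 0.13, and for TATAAA, held by 5 of the members tested, 0.85 and 0.20. For YY1 they ran the other way, at 0.12 with and 0.24 without, as they did for CCAAT, at 0.12 and 0.31. In all member promoters TATAAA was found in 10.1% and CCAAT in 43.04%, against 13.6% and 37.4% of all promoters. A match describes the letters in this window and is not a site shown to be bound.

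On the scale of deposited TPM, nearly every member stood higher in the MCAO cortex than in sham cortex. The summed TPM of all members was 19610.5, 21159.8 and 15027 in the 3 knockdown libraries and 18324, 16688 and 20815 in the control oligo libraries, against 9521, 9938 and 9165 in sham libraries. The mean was 1.95 times that of sham in knockdown and 1.95 times that of sham in control oligo, and neither group overlapped sham. Expressed as a share of the TPM of nuclear protein-coding genes, the same sums were 3.07, 3.35 and 2.64% in knockdown, 3.20, 2.74 and 3.81% in control oligo and 2.81, 2.90 and 2.99% in sham libraries. On that scale the 3 groups overlapped.

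Of the 94 members 91 reached a TPM of 1 in at least 3 libraries and were tested. limma-trend, with p-values adjusted over all genes by Benjamini-Hochberg and a threshold of 0.05, called 76 members higher and 0 lower in knockdown against sham, where 52.7% of all genes were called higher and 12.5% lower. In control oligo against sham it called 84 higher and 0 lower, with 52.6% of all genes higher and 12.8% lower. The median member change was 0.91 in knockdown against sham and 0.87 in control oligo against sham, beside the all-gene medians of 0.61 and 0.56. After scaling, 26 members were higher and 7 lower in knockdown against sham (22.7% and 27.1% of all genes), and 27 were higher and 5 lower in control oligo against sham (26.1% and 29.2% of all genes). The scaled member medians were 0.20 and 0.26, with all-gene medians of 0.01 and 0.01. Once the libraries are scaled, members were thus called higher about as often as genes at large, so that count is no result about the members. With this scaling they were called lower less often, at 7 and 5 of 91 beside 27.1% and 29.2% of all genes. Whether the members differ in this from other genes was not tested. On deposited TPM every knockdown library stood above every sham library in 78 members, and every control oligo library did in 85 (57.8% and 56.2% of genes tested), and in no member (0 of 94) was the order the other way round (14.2% of genes in both comparisons). Both comparisons use the same 3 sham libraries.

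Other ways of counting gave other splits. With TPM recalculated over nuclear protein-coding genes, 14 members were called higher and 15 lower in knockdown against sham (18.4% and 28.8% of genes), and 21 and 10 in control oligo against sham (22.1% and 29.9%). With the deposited FPKM, 34 were higher and 6 lower in knockdown (26.1% and 24.6% of genes), and 37 and 4 in control oligo (28.4% and 26.7%). With protein-coding transcripts only, an alternative added after seeing the data, 74 were higher and 0 lower in knockdown (53.7% and 7.3% of genes), and 81 and 1 in control oligo (52.2% and 7.88%). With such transcripts scaled, 21 were higher and 3 lower in knockdown (22.3% and 20% of genes), and 25 and 4 in control oligo (24.7% and 23.3%).

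**Figure D1:**
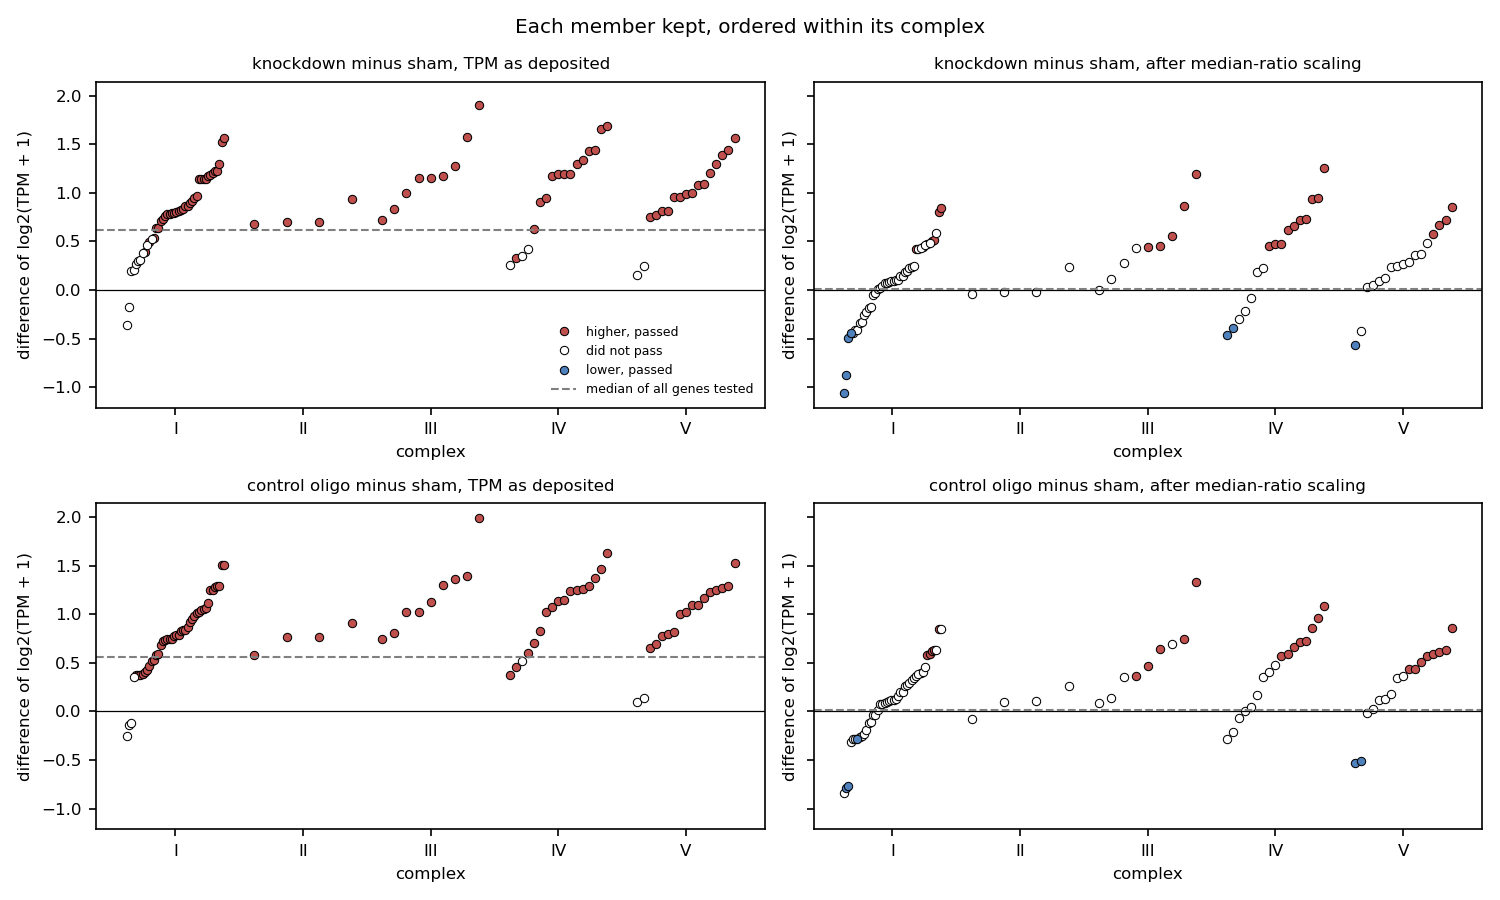
Difference of log2(TPM + 1) of each of the 91 members tested, ordered within complexes I to V, for knockdown minus sham (top) and control oligo minus sham (bottom), on TPM as deposited (left) and after median-ratio scaling (right). Filled points passed at an adjusted p under 0.05 in limma, and the dashed line is the median of all genes tested; scaling brings most points to both sides of 0, and those of complex III stay at or above it.

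Members are short messengers, and length moved with the change. The TPM-weighted mean transcript length had a median of 858 nt in the members tested and 2681 nt in all 13834 nuclear protein-coding genes tested. The 55 members under 1000 nt had a median scaled change of 0.28 in knockdown against sham and 0.38 in control oligo against sham, and the 36 longer members 0.07 and 0.10. Over the 91 members the Spearman correlation of length with the scaled change was -0.31 in knockdown against sham and -0.38 in control oligo against sham, a description over genes that share the same libraries. All 1099 tested nuclear protein-coding genes under 1000 nt had scaled medians of 0.42 and 0.41. The part of read length or library selection in this was not tested.

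The complexes did not move by the same amount. Shares within the chain do not depend on how libraries are scaled: complex III took 11.5, 11.6 and 12.5% of all member TPM in knockdown libraries and 12.0, 12.1 and 12.0% in control oligo libraries, against 9.53, 9.19 and 10.3% in sham libraries. Complex I took 28.4, 28.6 and 27.8% in knockdown and 28.6, 28.4 and 28.1% in control oligo, against 30.7, 29.3 and 30.2% in sham. Complex III was thus higher and complex I lower in both MCAO groups, with no overlap with sham. Complex II, the smallest, took 3.06, 2.93 and 3.01% in knockdown and 2.91, 3.42 and 2.85% in control oligo, against 3.52, 3.62 and 3.44% in sham, also lower without overlap. The shares of complexes IV and V overlapped between all groups. These shares are descriptions of 3 libraries each and carry no test.

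**Figure D2:**
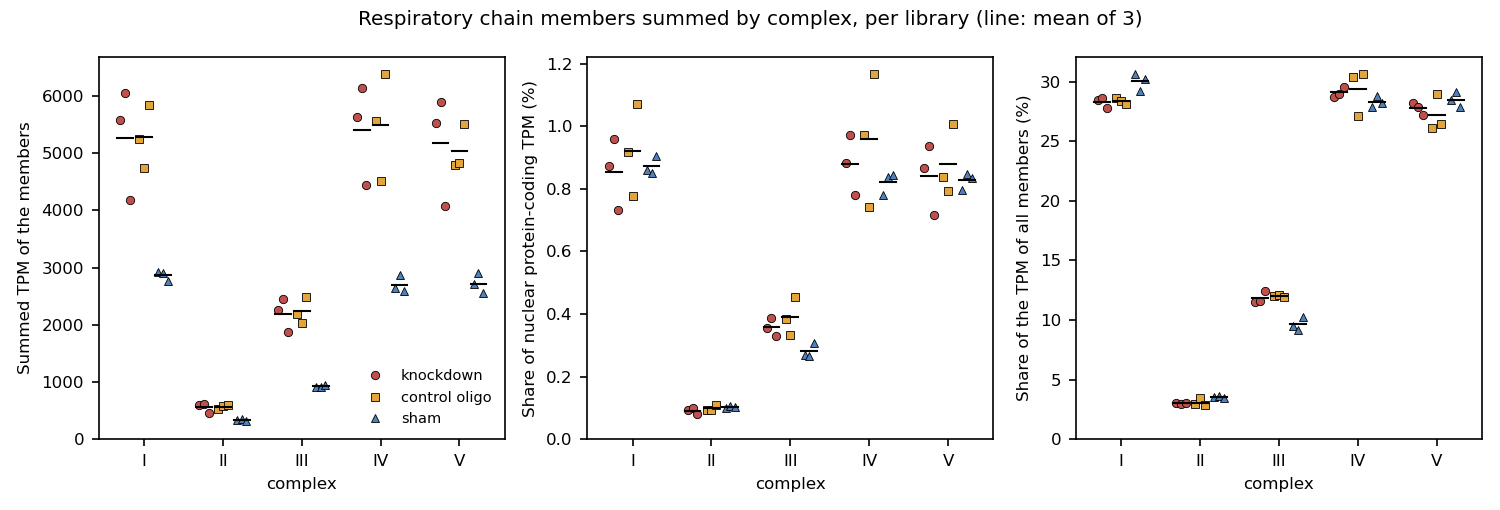
Members summed by complex in each library, as TPM (left), as a share of the TPM of nuclear protein-coding genes (middle) and as a share of the TPM of all members (right). Each point is a library of the knockdown, control oligo or sham group and each line the mean of 3; in the middle panel complex III is the complex in which both MCAO groups lie above sham, at 0.328 to 0.455% against 0.267 to 0.308%.

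Complex I, the entry point for electrons from NADH, had 34 of 44 members higher in knockdown against sham and 40 of 44 in control oligo against sham, none lower. Scaled, 7 were higher and 4 lower in knockdown against sham, and 6 higher and 3 lower in control oligo against sham. Its scaled medians, 0.09 and 0.12, were below those of complexes III to V. The counts of this and every other complex, and of their parts, stand beside the same shares of all genes. On deposited TPM 52.7% were higher and 12.5% lower in knockdown against sham, and 52.6% and 12.8% in control oligo against sham. Scaled they were 22.7% and 27.1%, and 26.1% and 29.2%. No complex was tested against these shares.

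The core subunits carry the redox centres. Ndufs1, the largest core subunit with iron-sulfur clusters, had 112, 115 and 85.7 TPM in knockdown and 115, 113 and 108 TPM in control oligo, against 85.7, 90.5 and 81.2 TPM in sham libraries. Control oligo lay above sham, whereas knockdown replicate 4 fell within the sham range. limma called Ndufs1 higher in control oligo (log2 change 0.38 ± 0.11 SE, adjusted p = 0.017), but scaled it was called lower (-0.28, adjusted p = 0.044), so its direction rests on the scaling, and with scaled protein-coding transcripts it did not pass (-0.34). In knockdown against sham it was called lower scaled as well (-0.45, limma adjusted p = 0.019). The same held there with TPM over nuclear protein-coding genes (-0.62) and with FPKM (-0.35). Ndufv1, which binds NADH, had 145, 133 and 109 TPM in knockdown and 112, 136 and 134 TPM in control oligo, against 89.6, 65.1 and 73.6 TPM in sham libraries. Its groups did not overlap sham in TPM, and its scaled changes of 0.04 and 0.08 in knockdown and control oligo did not pass.

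Among the accessory subunits, which surround the core, the range was wide. Ndufa3 had 240.4, 301 and 242 TPM in knockdown and 264, 206 and 317 TPM in control oligo, against 95.8, 96.5 and 78.8 TPM in sham libraries. It lay above sham in all 6 MCAO libraries, with the largest change of complex I in control oligo (1.52 in knockdown and 1.51 ± 0.17 SE in control oligo, limma adjusted p = 0.000145 for control oligo), and it passed scaled as well (0.80 and 0.85). Its exons overlap Tfpt on the other strand. Ndufb9 was the most abundant member of complex I, with 382, 466 and 288 TPM in knockdown and 399, 339 and 468 TPM in control oligo, against 223, 238 and 211 TPM in sham libraries, and it did not pass scaled (0.01 and 0.16). Ndufc1 and Ndufb2 went the other way once scaled. Ndufc1 had 31.1, 31.4 and 20.8 TPM in knockdown and 33.2, 21.4 and 30.4 TPM in control oligo, against 26.4, 33.8 and 33.1 TPM in sham libraries. The groups overlapped in TPM, and scaled it was called lower in both (-0.87 and -0.79, limma). Ndufb2, whose exons overlap Braf on the other strand, had 25.5, 29.4 and 20.0 TPM in knockdown and 25.8, 29.5 and 33.0 TPM in control oligo, against 24.4, 42.0 and 31.5 TPM in sham libraries, and was likewise lower scaled (-1.06 and -0.77).

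Of the 8 assembly factors, which help to build complex I and are no part of it, 6 were called higher in knockdown against sham and 7 in control oligo against sham, and none passed scaled in either direction. Ndufaf4 had 5.63, 8.36 and 14.2 TPM in knockdown and 5.24, 7.08 and 6.27 TPM in control oligo, against 5.00, 4.73 and 17.2 TPM in sham libraries. The lowest change of complex I in control oligo against sham (-0.26 ± 0.41 SE, not passing) came with 1 sham library far above the other 2. In that library and in knockdown replicate 4, a transcript of Ndufaf4 annotated as processed and not as coding had 12.8 and 6.37 TPM, and at most 1.19 TPM in the other 7.

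**Figure D3:**
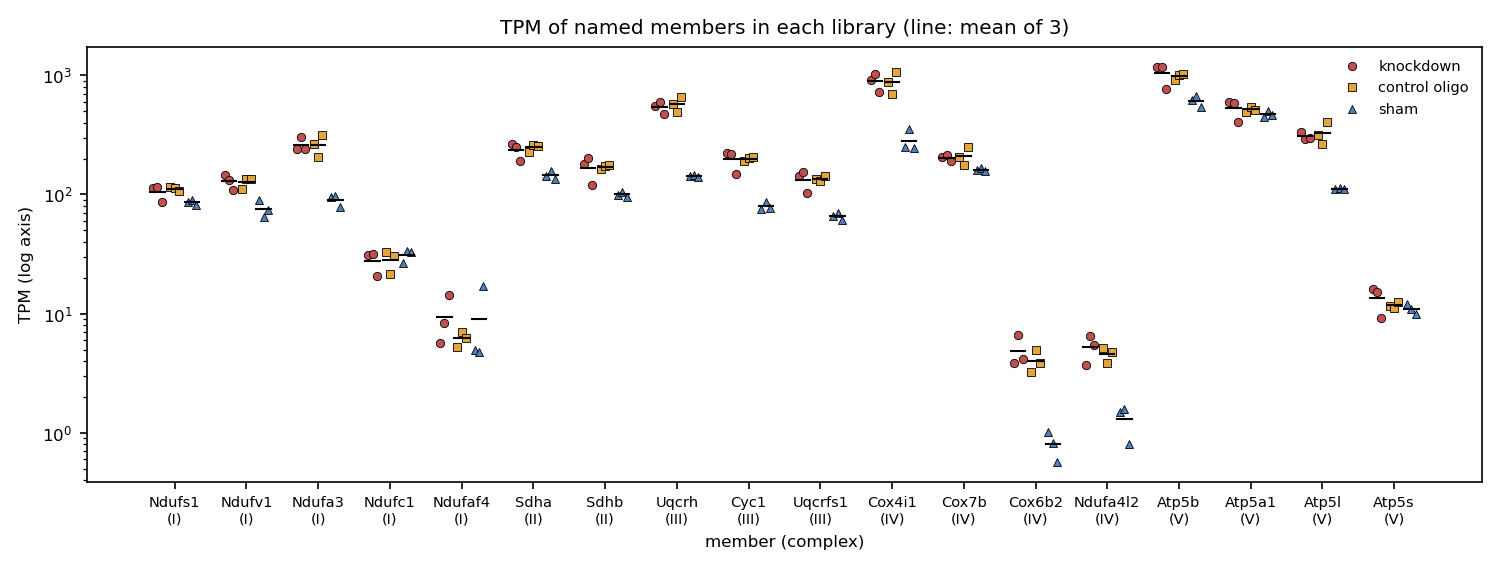
TPM on a log axis of 18 named members in each library, grouped by complex, with a line at the mean of each 3. In each gene knockdown stands left, control oligo in the middle and sham right. Uqcrh, Cox6b2, Ndufa4l2 and Atp5l show wide gaps to sham. Ndufc1, Ndufaf4, Atp5a1 and Atp5s overlap sham, and Ndufs1 overlaps it in knockdown.

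All 4 subunits of complex II, which also works in the tricarboxylic acid cycle, were called higher against sham in both MCAO groups on deposited TPM, and none passed scaled. Sdha, the flavoprotein that oxidises succinate, had 263, 251 and 191 TPM in knockdown and 227, 260 and 256 TPM in control oligo, against 144, 157 and 136 TPM in sham libraries. Sdhb, the iron-sulfur subunit, had 179, 201 and 119 TPM in knockdown and 163, 172 and 177 TPM in control oligo, against 99.1, 105 and 95.8 TPM in sham libraries. Both lay above sham in all 6 libraries, by a log2 change of 0.76 and 0.77 in control oligo that became 0.10 and 0.10 scaled. Scaled, the direction of both turned in knockdown (-0.04 and -0.02). The membrane anchors held the highest and lowest change of the complex in control oligo: Sdhc had 47.7, 49.1 and 41.8 TPM in knockdown and 43.9, 39.3 and 53.0 TPM in control oligo, against 22.9, 25.7 and 22.2 TPM in sham libraries (0.91 in control oligo). Sdhd had 111, 120 and 99.9 TPM in knockdown and 98.9, 99.2 and 107 TPM in control oligo, against 69.5, 72.0 and 61.5 TPM in sham libraries (0.58 in control oligo).

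Complex III had all 9 members higher against sham in both MCAO groups, and 5 of 9 passed as higher scaled in each, with none lower. Uqcrh, the small acidic hinge subunit near cytochrome c1, had 554, 592 and 473 TPM in knockdown and 577, 494 and 650.1 TPM in control oligo, against 142, 147 and 139 TPM in sham libraries. The lowest MCAO library stood far above the highest sham library. Its mean was 3.79 times that of sham in knockdown and 4.03 times in control oligo. The log2 change of 1.91 ± 0.15 SE in knockdown and 1.99 ± 0.13 SE in control oligo (limma adjusted p = 4.1e-05 and 8.2e-06) was the largest of all 91 members, and scaled it was 1.19 and 1.33. The gene lies at chr4:116066965-116075071 on the minus strand of GRCm38, 7.65% of the 51-mers of its main transcript recur in other genes, and none of its 141-mers do.

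The redox subunits of complex III moved less. Cyc1, the cytochrome c1 heme protein, had 224, 219 and 148 TPM in knockdown and 189, 201 and 204 TPM in control oligo, against 76.0, 85.6 and 77.6 TPM in sham libraries, and it passed scaled in both (0.56 and 0.64), but not in knockdown with TPM over nuclear protein-coding genes (0.38). Uqcrfs1, the Rieske iron-sulfur protein, had 143, 154 and 104 TPM in knockdown and 134, 129 and 142 TPM in control oligo, against 65.4, 70.2 and 61.2 TPM in sham libraries, and it passed scaled in control oligo only (0.37, and 0.28 in knockdown, a difference that was not tested), and in neither with TPM over nuclear protein-coding genes (0.11 in knockdown and 0.23 in control oligo). Uqcr11 had the lowest change, with 202, 238 and 183 TPM in knockdown and 202, 162 and 285 TPM in control oligo, against 132, 116 and 127 TPM in sham libraries, and its scaled changes were 0.00 and 0.09. Without Uqcrh, complex III took 8.71, 8.79 and 9.31% of member TPM in knockdown and 8.84, 9.17 and 8.83% in control oligo, against 8.04, 7.71 and 8.76% in sham libraries. Control oligo then still lay above sham and knockdown overlapped it, and as a share of nuclear protein-coding TPM both overlapped sham.

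Complex IV had 17 of 20 members tested, of which 14 were called higher in knockdown against sham and 16 in control oligo against sham. Scaled, 10 were higher and 2 lower in knockdown, and 8 higher and none lower in control oligo. Cox4i1, a regulatory subunit that binds nucleotides, had 916, 1025 and 727 TPM in knockdown and 875, 694 and 1061 TPM in control oligo, against 249, 356 and 244 TPM in sham libraries. It was the most abundant member of the complex in both MCAO groups, while Cox8a was in sham. Its change of 1.66 in knockdown and 1.63 ± 0.20 SE in control oligo (limma adjusted p = 0.00042 and 0.00018) was the largest of complex IV in control oligo and passed scaled (0.94 and 0.96). Its exons overlap Emc8 on the other strand. Cox7b had the lowest change of the complex in control oligo against sham, with 206, 213 and 190.2 TPM in knockdown and 205, 178 and 251 TPM in control oligo, against 160.3, 166 and 157 TPM in sham libraries. It was called higher on deposited TPM (0.33 and 0.38) and lower scaled in knockdown (-0.39), a call that was lost with scaled protein-coding transcripts (-0.13, limma adjusted p = 0.33). In knockdown against sham, Cox7a2 was the other member called lower scaled (-0.46, and -0.41 without passing with scaled protein-coding transcripts), with 278, 306 and 222 TPM in knockdown and 302, 256 and 369.8 TPM in control oligo, against 229, 239 and 200.5 TPM in sham libraries.

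Several subunits of complex IV come as a common form and a tissue form, and the ratio of such a pair within a library does not depend on scaling. Ndufa4l2, a paralog of Ndufa4 that is known as a target of hypoxia-inducible factor, stood at 1.45, 2.40 and 2.56% of Ndufa4 in knockdown and 1.86, 1.73 and 1.69% in control oligo, against 0.938, 0.925 and 0.562% in sham libraries. In TPM it had 3.71, 6.49 and 5.45 in knockdown and 5.11, 3.85 and 4.76 in control oligo, against 1.50, 1.58 and 0.809 in sham libraries. Every MCAO library was above every sham library in ratio and in TPM, and limma called Ndufa4l2 higher also scaled (0.95 and 0.86), though not in knockdown with scaled protein-coding transcripts (0.79). The sham libraries alone would not have met the filter for testing, and their values were low, which limits both the call and the ratio. Ndufa4 itself had 256, 271 and 213 TPM in knockdown and 275, 223 and 282 TPM in control oligo, against 159.9, 171 and 144 TPM in sham libraries, and it did not pass scaled. The exons of Ndufa4l2 overlap Shmt2 on the other strand.

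Cox6b2, best known from testis, stood at 0.640, 0.943 and 0.821% of Cox6b1 in knockdown and 0.508, 0.944 and 0.493% in control oligo, against 0.371, 0.2999 and 0.226% in sham libraries. In TPM it had 3.83, 6.67 and 4.20 in knockdown and 3.22, 4.98 and 3.83 in control oligo, against 1.02, 0.821 and 0.571 in sham libraries. It too lay above sham throughout and was called higher scaled (1.26 and 1.09). However, it met the filter for testing only through its MCAO libraries. Its sham values lay near the floor, which limits both the call and the ratio. The common form Cox6b1 had 598, 708 and 511 TPM in knockdown and 634, 528 and 777 TPM in control oligo, against 274, 274 and 253 TPM in sham libraries.

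In the other pairs of complex IV the ratios overlapped between the groups. Cox4i2, the form known from lung and oxygen-sensing cells, had 3.87, 4.76 and 2.82 TPM in knockdown and 3.11, 3.10 and 4.59 TPM in control oligo, against 0.638, 1.28 and 1.39 TPM in sham libraries, which is 0.388 to 0.464, 0.356 to 0.447 and 0.257 to 0.571% of Cox4i1. Cox6a2, the heart and muscle form of Cox6a1, had 17.2, 19.9 and 10.3 TPM in knockdown and 15.6, 13.1 and 15.6 TPM in control oligo, against 5.59, 5.56 and 5.67 TPM in sham libraries, and its ratio to Cox6a1 was 2.01 to 2.68, 2.08 to 2.82 and 1.97 to 2.19%. Cox6a1 had 643, 741 and 515 TPM in knockdown and 632, 464 and 750.1 TPM in control oligo, against 283, 276 and 259 TPM in sham libraries. Cox7a1, the muscle form of Cox7a2, had 5.28, 4.96 and 2.49 TPM in knockdown and 4.95, 3.09 and 6.72 TPM in control oligo, against 4.85, 1.97 and 2.67 TPM in sham libraries, and it passed in neither comparison. Cox8b had 0.931, 1.72 and 0 TPM in knockdown and 0.616, 0.866 and 0.277 TPM in control oligo, against 0, 0 and 1.24 TPM in sham libraries, and was not tested, like Cox7b2 and Cox8c, the last of which is listed at 0 in all 9. Cox8a had 695, 746 and 525 TPM in knockdown and 769.9, 593 and 853 TPM in control oligo, against 494, 493 and 461 TPM in sham libraries. It was called higher in control oligo against sham on deposited TPM (0.60) but not scaled. With TPM over nuclear protein-coding genes it was called lower in knockdown against sham (-0.47), and in control oligo against sham it did not pass (-0.21).

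Markers of the cells that could hold such forms were set beside them, in TPM recalculated over nuclear protein-coding genes. The 9 pericyte and smooth muscle markers summed to 240.3 to 417 in knockdown and 229 to 298 in control oligo, against 314 to 328 in sham libraries. The 4 parvalbumin interneuron markers summed to 297 to 376 in knockdown and 311 to 406 in control oligo, against 286 to 323 in sham libraries. The 8 skeletal muscle markers summed to 23.3 to 49.1, 28.5 to 32.9 and 22.1 to 27.9, and the 5 brown fat markers to 11.4 to 13.7, 9.29 to 11.9 and 1.41 to 2.40, with Plin1 at 0 in all 9 libraries and Adipoq at 0 in all but 1. Their part in the ratios was not tested.

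Complex V had 15 of 17 members higher against sham in both MCAO groups. Scaled, 4 were higher and 1 lower in knockdown, and 8 higher and 2 lower in control oligo. Atp5b, the catalytic beta subunit, had the highest mean TPM of the whole chain in each group when all its transcripts were counted, with 1177, 1172 and 764 TPM in knockdown and 914, 996 and 1025 TPM in control oligo, against 615, 666 and 539 TPM in sham libraries. It lay above sham in all 6, and its scaled changes of 0.03 and 0.03 did not pass. In protein-coding transcripts alone its mean was 773 TPM in knockdown, 634 TPM in control oligo and 438 TPM in sham libraries, below Cox4i1 in knockdown and control oligo (825 and 793 TPM) and below Cox8a in sham (483 TPM). Atp5l, the membrane subunit g, had 332, 293 and 296 TPM in knockdown and 315, 266 and 408 TPM in control oligo, against 111, 114 and 112 TPM in sham libraries, the largest change of the complex in control oligo (1.53 ± 0.16 SE, scaled 0.86, passing in both). However, 68.4% of the 51-mers and 48.0% of the 141-mers of its transcript occur in other genes, so the split of its reads is uncertain. Atp5s, a coupling factor that is no core subunit, had 16.2, 15.3 and 9.12 TPM in knockdown and 11.7, 11.3 and 12.6 TPM in control oligo, against 12.1, 10.9 and 9.98 TPM in sham libraries. In control oligo against sham it had the lowest change of the complex (0.10) and was called lower scaled (-0.51).

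The c-ring subunit is encoded by 3 genes with the same mature protein. Atp5g3 had 358, 432 and 326 TPM in knockdown and 339, 355 and 420.4 TPM in control oligo, against 143, 163 and 144 TPM in sham libraries. Atp5g1 had 191, 203 and 122 TPM in knockdown and 140.2, 157 and 160.1 TPM in control oligo, against 66.6, 74.0 and 52.1 TPM in sham libraries. Atp5g2 had 78.7, 88.0 and 76.7 TPM in knockdown and 94.0, 78.0 and 97.2 TPM in control oligo, against 41.0, 44.1 and 39.1 TPM in sham libraries. All 3 lay above sham in TPM. Relative to Atp5g3, Atp5g1 overlapped between groups, at 37.4 to 53.4% in knockdown, 38.1 to 44.3% in control oligo and 36.1 to 46.5% in sham libraries, and Atp5g2 was lower without overlap in knockdown, at 20.3 to 23.5% against 27.0 to 28.6% in sham libraries, with 22.0 to 27.7% in control oligo. Atp5g1 and Atp5g2 share over 50% of their 141-mers with other genes.

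Atp5a1, the alpha subunit that forms the catalytic ring with Atp5b, was flat as a gene: it had 601, 582 and 405 TPM in knockdown and 491, 545 and 511 TPM in control oligo, against 443, 502 and 465 TPM in sham libraries. On deposited TPM it did not pass (0.15 and 0.13), and scaled it was called lower in both (-0.57 and -0.53, limma). Its transcripts, however, moved in opposite directions. The protein-coding transcripts had 517, 506 and 355 TPM in knockdown and 416, 477 and 419 TPM in control oligo, against 207, 216 and 192 TPM in sham libraries. A 4-exon transcript of 816 nt annotated as retained intron had 3.07, 4.52 and 9.45 TPM in knockdown and 19.9, 15.7 and 4.88 TPM in control oligo, against 165, 216 and 186 TPM in sham libraries. When genes were summed over protein-coding transcripts only, an alternative chosen after seeing the data, Atp5a1 was called higher in control oligo against sham both on deposited TPM (1.09) and scaled (0.43, adjusted p = 0.0076), and in knockdown against sham on deposited TPM (1.14) but not scaled (0.42). The direction of this gene therefore turns with the transcripts counted.

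**Figure D4:**
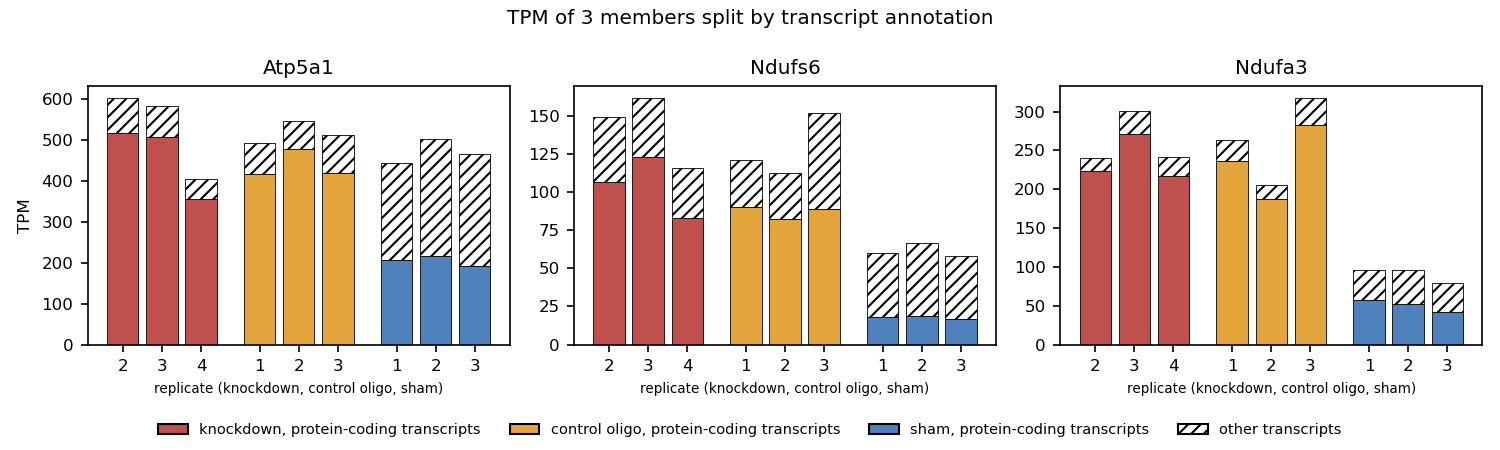
TPM of Atp5a1, Ndufs6 and Ndufa3 in each library, split into transcripts annotated as protein coding (filled) and all others (hatched), with knockdown left, control oligo in the middle and sham right. The hatched share of the bar of Atp5a1 is 12.3 to 18.1% in MCAO and 53.2 to 58.8% in sham libraries, and in Ndufs6 and Ndufa3 this share of the bar is likewise larger in every sham library than in any MCAO library.

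Over all members, transcripts not annotated as protein coding held 9.54, 11.3 and 11.9% of member TPM in knockdown and 12.1, 12.98 and 11.9% in control oligo, against 17.6, 16.6 and 14.1% in sham libraries. Both MCAO groups were below sham without overlap, and transcripts of the retained intron class alone held 4.70 to 6.85, 6.11 to 7.47 and 7.51 to 9.33%. Complexes III, IV and V were lower without overlap in both, complex II was not lower in either, and complex I overlapped at 14.5 to 18.1, 17.6 to 18.7 and 15.1 to 18.9%. Of 91 members the share was lower in both MCAO groups without overlap in 19 and higher in 2, while over 13628 nuclear protein-coding genes it was lower in 9.12% and higher in 3.32%. Whether the members differ in this from other genes was not tested. Ndufs6, like the processed transcript of Ndufaf4, was chosen after its values were seen. Ndufs6, an accessory subunit, had 28.4, 23.9 and 28.5% in knockdown and 25.8, 26.6 and 41.5% in control oligo, against 69.9, 71.7 and 71.5% in sham libraries. Ndufa3 had 6.94, 9.98 and 10.2% in knockdown and 10.4, 9.13 and 10.7% in control oligo, against 40.4, 46.1 and 46.4% in sham libraries. Read length differed between the data sets, and its part in these shares was not tested.

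No member passed in knockdown against control oligo. limma called 0 of 91 members in knockdown against control oligo, where it called 0.00585% of all genes higher and 0.00585% lower, and no member had an unadjusted p under 0.05. With FPKM the shares of genes called were 0.00585% and 0.00585%. With scaling it called 0.0117% of genes higher and 0.00585% lower, with scaled protein-coding transcripts 0.00723% and 0.00723%, with TPM over nuclear protein-coding genes or unscaled protein-coding transcripts 0% and 0%, and in each case 0 members. The median change was 0.01, beside 0.06 for all genes, with 48 members above 0 and 43 below. The single changes ran from -0.24 to 0.45, and the TPM of the groups overlapped in all 94 members, where 3.6% of all genes were separated as higher and 1.8% as lower. The 95% interval of the difference stayed within ±1 (log2) in 90 members, and its bounds lay a median of 0.46 from the estimate. These intervals are not adjusted for the number of genes tested, whereas the calls are. With 3 libraries a group, changes of that size and larger ones could therefore fail to pass, and 0.46 is no limit of detection.

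**Figure D5:**
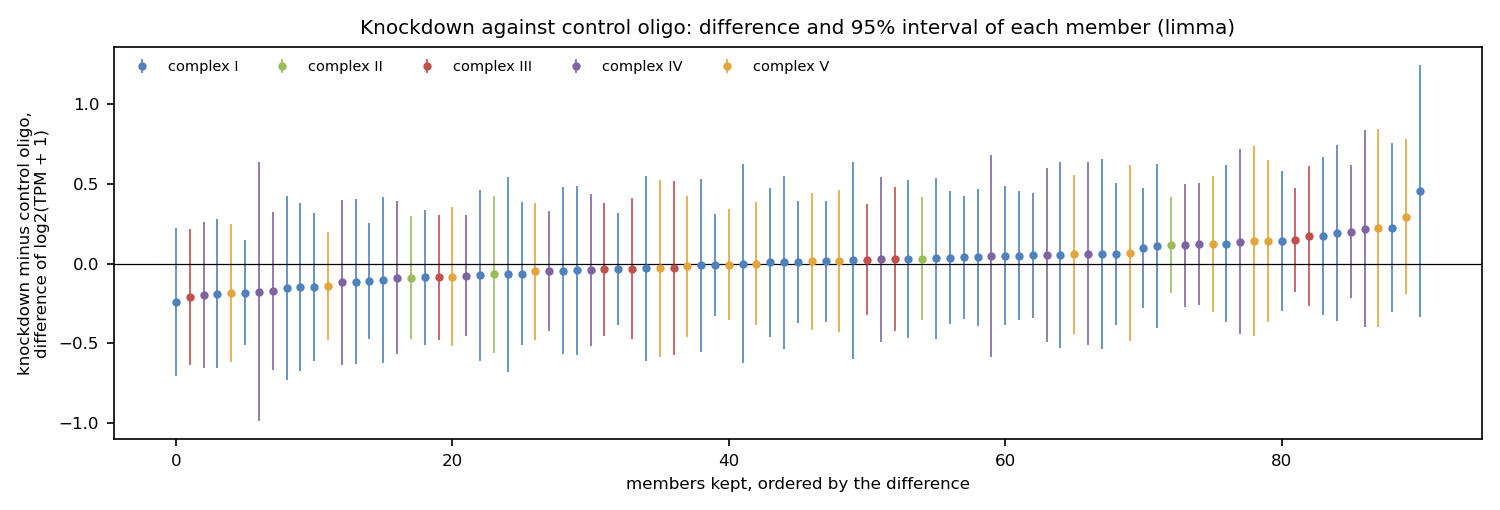
Difference of log2(TPM + 1), knockdown minus control oligo, with its 95% interval from limma for each of the 91 members tested, ordered by the difference and coloured by complex. Every interval spans 0, and those that reach past 1 or close to -1 belong to low-level members (Ndufaf4 from -0.34 to 1.25, Cox7a1 from -0.99 to 0.64).

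The 5 members with the smallest p in knockdown against control oligo did not pass (limma adjusted p = 1 for each). Atp5j, coupling factor 6 of ATP synthase, had 257, 324 and 262 TPM in knockdown against 176, 241 and 278 TPM in control oligo libraries and 120.2, 86.6 and 78.9 TPM in sham libraries (0.30, interval -0.19 to 0.78). Its exons overlap Gabpa on the other strand. Ndufaf4, given above, differed by 0.45. Ndufb4, an accessory subunit of complex I, had 44.9, 49.5 and 42.9 TPM in knockdown against 50.3, 48.3 and 57.7 TPM in control oligo libraries and 40.8, 40.8 and 36.8 TPM in sham libraries (-0.18, interval -0.51 to 0.15). Ndufb2 differed by -0.24 (-0.71 to 0.23). Uqcr10, a small subunit of complex III, had 277, 351 and 267 TPM in knockdown against 339.8, 292 and 402 TPM in control oligo libraries and 113, 119 and 173 TPM in sham libraries (-0.21, interval -0.63 to 0.22). In each the knockdown and control oligo libraries overlapped.

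Knockdown replicate 4 stood apart within its group. It was the lowest of the 3 in 84 of 91 members, at a median of -0.32 (log2) from the group mean. Its neutrophil markers (6 genes, in TPM over nuclear protein-coding genes) summed to 2447, against 115 and 146 in the other knockdown libraries, 568, 50.5 and 618 in control oligo and 8.48 to 22.2 in sham libraries, and its microglial markers to 1365 against 556 and 517 in the other knockdown libraries. Excitatory neuron markers summed to 3942 in it and to 5191 and 4814 in the other knockdown libraries, with 4652 to 4994 in control oligo and 2392 to 2742 in sham libraries, so it was the lowest MCAO library and still above sham. Without it the median of the members in knockdown against control oligo was 0.16 rather than 0.01, 8 members had an unadjusted p under 0.05 and still 0 passed. The part of these cell markers in the member values was not tested.

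Other genes of the pathway showed no call in knockdown against control oligo in any of 9 lists. In control oligo against sham the assembly factors were called higher in 5 of 9 (complex I), 6 of 10 (complexes II and III), 15 of 23 (complex IV) and 4 of 5 (complex V and its inhibitor), with none lower, where 52.6% of all genes were called higher. Read against that share, 5 of 9, 6 of 10 and 15 of 23 are no result about those lists. The background of 52.6% higher and 12.8% lower, and of 26.1% and 29.2% scaled, holds for the lists that follow too, and none was tested against it. Scaled, 1 was higher and 3 lower, 1 higher and 2 lower, 5 higher and 4 lower, and 2 higher and 0 lower. Cox11, a copper chaperone for complex IV, had 31.2, 24.2 and 19.9 TPM in knockdown and 22.2, 23.2 and 19.5 TPM in control oligo, against 5.46, 3.93 and 4.19 TPM in sham libraries (2.04 in control oligo, scaled 1.46, passing in both). Cox20 and Surf1, also of complex IV assembly, changed by 1.33 and 1.19 (scaled 0.69 and 0.54, passing). Foxred1 of complex I assembly changed by 1.06 (0.43 scaled), Sdhaf1 of complex II by 1.14 (0.59) and Atpaf2 of complex V by 1.05 (0.43), all passing in control oligo against sham on both scales. With TPM recalculated over nuclear protein-coding genes Foxred1 and Atpaf2 no longer passed (0.30 and 0.30). Ecsit and Tmem186 (complex I assembly), Uqcc3 and Uqcc1 (complex III assembly) and Atpif1, the inhibitor of ATP synthase, passed on deposited TPM alone, at 0.73, 0.63, 0.90, 0.84 and 0.96. Atpaf1 passed on both scales, at 1.05 and 0.41, but not with TPM over nuclear protein-coding genes (0.28).

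Electron carriers and coenzyme Q genes were higher in 12 of 15 and scaled in 3, with 2 lower. Etfb and Etfa, the subunits of the flavoprotein that feeds electrons from fat oxidation, changed by 1.67 and 1.31 in control oligo against sham (scaled 1.02 and 0.68), and Coq7, of coenzyme Q synthesis, by 1.24 (0.60). Regulators of respiratory genes were higher in 8 of 18 and lower in 1, and scaled higher in 4 and lower in 6. Pprc1, a coactivator of the PGC-1 family, changed by 1.24 (0.69 scaled), Gabpb1, a subunit of GABP, by 1.15 (0.56) and Tfam, the factor that packages and transcribes mitochondrial DNA, by 1.04 (0.42), which for Tfam no longer passed with TPM over nuclear protein-coding genes (0.29). The gene that fell was Ppargc1b, also of the PGC-1 family, with 2.36, 1.51 and 1.64 TPM in knockdown and 1.997, 2.10 and 1.45 TPM in control oligo, against 4.83, 3.67 and 4.10 TPM in sham libraries (-0.87, scaled -1.39). Coactivators of one family thus differed in direction, on both scales.

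In the tricarboxylic acid cycle list 16 of 21 were higher, and scaled 6 were higher and 4 lower. Pdk4, a kinase that switches off pyruvate dehydrogenase, had 22.7, 22.0 and 34.5 TPM in knockdown and 26.6, 16.5 and 14.5 TPM in control oligo, against 2.65, 2.46 and 2.28 TPM in sham libraries (2.50, scaled 1.96). Pdk2 and Mdh2, a second such kinase and malate dehydrogenase, changed by 1.83 and 1.63 (scaled 1.18 and 0.97). Among mitochondrial carriers and hypoxia-linked factors 11 of 12 were higher, and scaled 4 were higher and 1 lower. Ucp2, an uncoupling protein, had 18.7, 23.7 and 48.7 TPM in knockdown and 33.4, 20.0 and 35.0 TPM in control oligo, against 2.35, 2.14 and 1.14 TPM in sham libraries (3.39, scaled 2.89). Slc25a3, the phosphate carrier, and Chchd2 changed by 1.72 and 1.34 (1.05 and 0.68).

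The 13 subunits encoded by the mitochondrial genome were called higher in 13 of 13 in both MCAO groups against sham, with a median of 6.91 in knockdown and 7.22 in control oligo, on another scale than the nuclear partners. mt-Atp6, mt-Atp8 and mt-Nd4l led with 9.70, 9.56 and 8.47 in control oligo against sham (9.05, 8.90 and 7.82 scaled). The MCAO libraries were made from poly(A) RNA, the RNA selection of the sham libraries is not given in the sources used here, and its part was not tested.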

How the data were processed

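The authors deposited a StringTie table for each of 9 libraries, which holds for every transcript a read coverage, an FPKM and a TPM value, all of which are normalized by the authors. Per the submitters' processing notes, HISAT2 2.0 and StringTie 1.3 were used on GRCm38/mm10, and per the file headers StringTie was 1.3.4d with the options -e and -B and no strand option, so genes that overlap on opposite strands cannot be told apart. TPM is the unit of the main tests, the deposited FPKM an alternative, and the deposited coverage was used to estimate depth and read length. No count-based test was run. The results of a further member are in the counts but are not reported here.

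TPM was summed over the 131100 transcripts by gene ID. A gene was tested if it had a TPM of at least 1 in at least 3 of 9 libraries (17080 genes). For each comparison its 6 libraries alone entered a limma-trend fit of log2(TPM + 1), run with limma 3.58.1 under R 4.3.3, with a threshold of 0.05 on the Benjamini-Hochberg adjusted p, and the fit was tested on simulated data. This scale understates the change of low genes. Nothing in the labels ties replicates to cultures or litters, and p-values measure the spread between these samples. Transcript types are those of GENCODE M21. Members, lists and named genes were chosen with earlier results of these data known. Named were, by complex, the members with the highest and lowest change in control oligo against sham and the highest TPM, 9 defining subunits, the pairs of isoforms, the 5 smallest p in knockdown against control oligo, up to 4 members whose call turns on scaling, and up to 3 genes of each other list. Of 94 members, 56 share no 51-mer with another gene and 79 no 141-mer, and 27 overlap exons of a gene on the other strand. Alternatives were median-ratio scaling, TPM over nuclear protein-coding genes, FPKM, a pseudocount of 0.1, no filter, all 9 libraries in a fit, a replicate block, each library left out and, added after seeing the data, protein-coding transcripts only, unscaled and scaled. Python 3.11.15 with pandas, numpy and matplotlib was used.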

Additional observations from a re-analysis of the deposited data

How the results depend on the processing

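The choice of scale moved most results against sham. In knockdown against sham 26 members were higher and 7 lower with median-ratio scaling, 14 and 15 with TPM over nuclear protein-coding genes, 34 and 6 with FPKM, and 21 and 3 with scaled protein-coding transcripts. In control oligo against sham the same counts were 27 and 5, 21 and 10, 37 and 4, and 25 and 4, and with unscaled protein-coding transcripts 1 member was lower. Leaving out each library in turn gave 65 to 86 members higher in knockdown against sham, with 86 without knockdown replicate 4, and 76 to 85 in control oligo against sham, and 0 lower in each. Knockdown against control oligo gave 0 calls in each direction under each of these alternatives. No pseudocount, filter or shared fit moved a count by over 1.5 times. The shares of all genes called with a library left out or with the replicate block are not given here. Those counts are therefore no result about the members.

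The log2 fold of the summed complexes I, II, III, IV and V as a share of nuclear protein-coding TPM was -0.028, -0.18, 0.35, 0.097 and 0.022 in knockdown against sham, and 0.080, -0.057, 0.48, 0.23 and 0.089 in control oligo against sham. In FPKM it was 0.24, 0.093, 0.62, 0.37 and 0.29 in knockdown against sham, and 0.29, 0.15, 0.69, 0.44 and 0.30 in control oligo against sham.

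Named members that were called on deposited TPM or under the alternative changed direction as follows, and the cause was not tested. Changes of sign with a call in neither are not listed. Many of the values listed did not pass under the alternative itself. With median-ratio scaling Atp5a1, Cox7a2, Cox7b, Ndufb4 and Ndufs1 were called lower in knockdown against sham, and Ndufa4, Sdha, Sdhb and Sdhd were not. In control oligo against sham Atp5a1, Atp5s and Ndufs1 were called lower with that scaling, and the others listed were not. In knockdown against sham with median-ratio scaling, Atp5a1 was at -0.57, Cox7a2 -0.46, Cox7b -0.39, Ndufa4 -0.087, Ndufb4 -0.50, Ndufs1 -0.45, Sdha -0.043, Sdhb -0.019 and Sdhd -0.018. With TPM over nuclear protein-coding genes, Atp5a1 was at -0.75, Atp5b -0.15, Atp5s -0.61, Cox7a2 -0.63, Cox7b -0.56, Cox8a -0.47, Ndufa4 -0.26, Ndufb4 -0.68, Ndufb9 -0.17, Ndufs1 -0.62, Ndufv1 -0.13, Sdha -0.22, Sdhb -0.19, Sdhd -0.19 and Uqcr11 -0.17. With FPKM, Atp5a1 was at -0.48, Cox7b -0.30, Ndufb4 -0.40 and Ndufs1 -0.35. With scaled protein-coding transcripts, Cox7b was at -0.13, Ndufa4 -0.078, Ndufb4 -0.49, Sdha -0.032, Sdhb -0.090 and Sdhd -0.018. In control oligo against sham with median-ratio scaling, Atp5a1 was at -0.53, Atp5s -0.51, Cox7a2 -0.21, Cox7b -0.29, Cox8a -0.068, Ndufb4 -0.26, Ndufs1 -0.28 and Sdhd -0.078. With TPM over nuclear protein-coding genes, Atp5a1 was at -0.67, Atp5b -0.11, Atp5s -0.67, Cox7a2 -0.35, Cox7b -0.43, Cox8a -0.21, Ndufa4 -0.096, Ndufb4 -0.41, Ndufs1 -0.42, Ndufv1 -0.057, Sdha -0.041, Sdhb -0.036, Sdhd -0.22 and Uqcr11 -0.055. With FPKM, Atp5a1 was at -0.46, Atp5s -0.43, Cox7a2 -0.14, Cox7b -0.22, Cox8a -0.000777, Ndufb4 -0.20, Ndufs1 -0.21 and Sdhd -0.011. With scaled protein-coding transcripts, Atp5b was at -0.14, Atp5s -0.51, Cox7a2 -0.15, Cox7b -0.035, Cox8a -0.068, Ndufb4 -0.27, Ndufs1 -0.34 and Sdhd -0.078.

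Replicate numbers do not pair the libraries: same-numbered deviations correlated at -0.06 and 0.07 in knockdown with sham, 0.23 and 0.07 in knockdown with control oligo, and -0.03, -0.07 and 0.12 in control oligo with sham. With the replicate block 84 members were higher in knockdown against sham, 83 in control oligo against sham, and 0 were called in knockdown against control oligo, with 2 at an unadjusted p under 0.05. In both comparisons of knockdown the replicate numbers 1 and 4 occur in 1 group only. The block then takes up those libraries, so these estimates rest on replicates 2 and 3, without knockdown replicate 4. With 3 libraries a group, low members such as Ndufaf4 and Cox7a1 have wide intervals.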
